A study of Mus musculus with 8 samples.

Results

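Immunoglobulin variable (V) gene usage was described in 8 single-cell RNA libraries from mouse allografts and blood. The members were all genes whose names start with Ighv, Igkv or Iglv, and they numbered 149 of the 24405 genes listed. They were 68 heavy chain genes (Ighv, chromosome 12), 78 kappa light chain genes (Igkv, chromosome 6) and 3 lambda light chain genes (Iglv, chromosome 16), which compares with 185, 160 and 3 in the annotation. Of the 149, 136 are annotated as functional V genes and 13 as pseudogenes, and the pseudogenes held 28 of the 9896 V unique molecular identifiers (UMIs, counted molecules). The tables list a V gene only where it has a UMI, and 46 V genes had at least 10 UMIs in all.

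BALB/c hearts, livers and kidneys were transplanted into C57BL/6 mice, with donors and recipients aged 8 weeks and no immunosuppressive drug given, and all libraries were taken on day 7. The liver replaced the recipient's own organ, whereas heart and kidney grafts were placed beside native organs left in situ. Peripheral blood mononuclear cells (PBMC) and tissue-infiltrating lymphocytes (TIL, from a density gradient after collagenase digestion) came from each organ's recipients, and parenchymal cells (PC) from liver and kidney. Heart PC were not analysed here. Every label gives BALB/c as the strain and male as the sex, so the labels do not separate donor from recipient cells, and V genes are named against the C57BL/6 reference genome. Each condition had 1 library of 10000 barcodes, the study's methods name more than 1 recipient per organ, whether a library pools them is not stated, and no test between conditions was run. Values therefore carry 95% intervals that cover counting error only: exact Poisson for levels and ratios, exact binomial for shares, and a linearised interval for diversity and overlap.

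An antibody is made of paired heavy and light chains, and each chain joins 1 V segment, chosen from many in its locus by V(D)J recombination, to a constant region. The kappa locus supplies most light chains in mice, and the lambda locus holds few V segments, which join particular constant genes (Iglv1 joins Iglc1 or Iglc3, while Iglv2 and Iglv3 mainly join Iglc2). Plasma cells are the antibody-secreting end stage of B cells, each normally expressing 1 heavy and 1 light chain V gene, so V usage serves as a natural tag of B lineage clones. In an immunoglobulin mRNA the V exon lies near the 5′ end, and these libraries were enriched for 3′ ends.

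The V exons of 7 genes are shown because the results turn on them, 300 bases of each: the first 300 of the exon, or the last 300 for both Igkv3 genes. They were read from the reference transcripts (GENCODE, build GRCm38), 5′ to 3′ on the coding strand, and are germline sequence, not sequence from these mice. Iglv1 (chr16:19085022-19085321, minus strand) was the commonest V gene, and its near copy Iglv2 (chr16:19260406-19260705, minus strand) differed at 9 of the 305 bases of the exon, an identity of 97.0%. Capitals mark the bases at which Iglv1 and Iglv2 differ, all 9 of them in the stretch shown.
Iglv1: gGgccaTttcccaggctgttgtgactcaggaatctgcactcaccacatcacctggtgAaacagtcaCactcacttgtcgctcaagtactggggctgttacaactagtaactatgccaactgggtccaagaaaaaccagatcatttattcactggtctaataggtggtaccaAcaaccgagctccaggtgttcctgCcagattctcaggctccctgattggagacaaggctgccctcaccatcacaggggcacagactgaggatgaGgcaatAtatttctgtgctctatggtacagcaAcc
Iglv2: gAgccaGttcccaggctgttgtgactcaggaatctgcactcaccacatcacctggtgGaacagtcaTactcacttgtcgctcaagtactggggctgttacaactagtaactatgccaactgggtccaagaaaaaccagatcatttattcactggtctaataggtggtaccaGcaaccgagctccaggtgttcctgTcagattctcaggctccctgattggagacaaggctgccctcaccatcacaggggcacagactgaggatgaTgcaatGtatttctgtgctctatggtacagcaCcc
Iglv3 (chr16:19241231-19241530, minus strand), the other lambda V gene, shared 52.2% of 324 aligned positions with Iglv1 and is shown with no capitals.
Iglv3: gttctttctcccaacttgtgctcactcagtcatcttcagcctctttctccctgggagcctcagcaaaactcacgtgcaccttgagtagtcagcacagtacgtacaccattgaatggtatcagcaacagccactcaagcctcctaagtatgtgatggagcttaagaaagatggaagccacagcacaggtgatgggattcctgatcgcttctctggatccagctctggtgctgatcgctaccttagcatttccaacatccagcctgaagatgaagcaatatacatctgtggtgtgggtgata
Igkv3-7 (chr6:70607737-70608036, plus strand) and Igkv3-12 (chr6:70518550-70518849, plus strand) were the commonest kappa V genes and belong to 1 family. They differed at 10 of the 310 bases of the exon (96.8% identity), and capitals mark these 10 bases.
Igkv3-7: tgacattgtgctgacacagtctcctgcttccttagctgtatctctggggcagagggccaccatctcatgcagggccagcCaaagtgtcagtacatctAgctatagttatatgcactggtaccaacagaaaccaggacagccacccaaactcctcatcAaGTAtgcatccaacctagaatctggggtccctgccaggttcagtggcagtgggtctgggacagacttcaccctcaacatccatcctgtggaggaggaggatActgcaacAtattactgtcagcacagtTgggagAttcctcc
Igkv3-12: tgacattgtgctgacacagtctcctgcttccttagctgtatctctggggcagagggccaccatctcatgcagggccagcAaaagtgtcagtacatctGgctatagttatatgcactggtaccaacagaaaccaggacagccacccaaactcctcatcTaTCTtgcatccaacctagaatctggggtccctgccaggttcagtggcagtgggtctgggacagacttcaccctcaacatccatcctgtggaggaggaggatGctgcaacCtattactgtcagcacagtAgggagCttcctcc
Ighv1-82 (chr12:115952543-115952842, minus strand) and Igkv4-91 (chr6:68768564-68768863, minus strand) formed the heavy and light pair that recurred most often among plasma cells, and are shown with no capitals.
Ighv1-82: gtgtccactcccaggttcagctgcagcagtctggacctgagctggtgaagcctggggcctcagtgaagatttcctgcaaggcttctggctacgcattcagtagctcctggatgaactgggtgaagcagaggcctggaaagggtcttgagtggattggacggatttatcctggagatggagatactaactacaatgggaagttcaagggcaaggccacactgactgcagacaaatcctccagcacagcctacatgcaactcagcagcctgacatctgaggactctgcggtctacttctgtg
Igkv4-91: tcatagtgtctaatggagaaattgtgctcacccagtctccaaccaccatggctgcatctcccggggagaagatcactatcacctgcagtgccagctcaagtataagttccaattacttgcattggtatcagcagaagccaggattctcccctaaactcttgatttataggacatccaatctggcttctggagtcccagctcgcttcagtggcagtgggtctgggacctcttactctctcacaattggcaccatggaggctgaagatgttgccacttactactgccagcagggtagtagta
Reads aligned to more than 1 place were removed by the authors, so counts split between near copies such as Iglv1 and Iglv2 or Igkv3-7 and Igkv3-12 are uncertain.

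Library totals ranged from 3418722 to 19171264 UMIs, and median UMIs per barcode from 261 in kidney PBMC to 1501.5 in liver PC. Organ markers went against 2 labels. The library labelled liver TIL held 0 UMIs of 5 hepatocyte markers and 1374 of 7 cardiomyocyte markers, whereas the library labelled heart TIL held 2748 hepatocyte and 216 cardiomyocyte UMIs. These libraries are called labelled heart TIL and labelled liver TIL below, and the ratios to blood, their counts and the overlaps over all V genes and over Ighv and Igkv are also given with the labels exchanged. Kidney TIL and kidney PC held 3790 and 3405 UMIs of 4 proximal tubule markers, and liver PC held 3598 hepatocyte UMIs. Any pair of libraries shared 123 to 617 cell barcodes.

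V transcripts were far more abundant in 3 tissue libraries than in blood. Labelled liver TIL held 6340 V UMIs (742 CPM, UMIs scaled to a common library total, interval 724 to 761), liver PC 2594 (135 CPM, 130 to 141) and labelled heart TIL 732 (78.7 CPM, 73.1 to 84.6). Together they held 97.7% of all V UMIs. The other 5 libraries held 59 (heart PBMC), 82 (liver PBMC), 21 (kidney PBMC), 38 (kidney TIL) and 30 (kidney PC), or 6.09 to 12.2 CPM. In library sums, fewer plasma cells and less V RNA per cell cannot be told apart. The mix of cells differed too. Neutrophil markers (5 genes) summed to 99138 to 196483 CPM in blood and 195 to 9496 in tissue. B cell markers (10 genes) summed to 72.2 to 906 CPM in blood and 17.8 to 71.0 in tissue. The part of this mix in the V levels and their ratios was not tested.

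**Figure D1:**
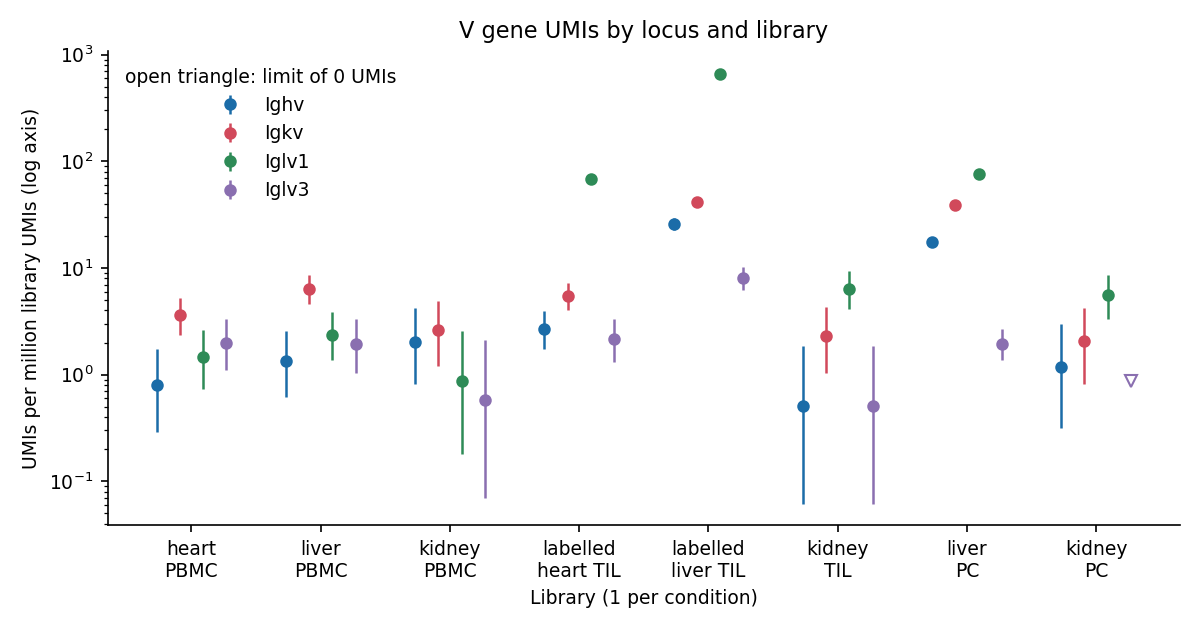
CPM of Ighv, Igkv, Iglv1 and Iglv3 (log axis) in each of the 8 libraries, with bars for 95% exact Poisson intervals and an open triangle for the upper limit where no UMI was seen. Iglv1 is the highest point of all 5 tissue libraries, at 666 CPM in labelled liver TIL, and Igkv is the highest in all 3 blood libraries.

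Against blood of the same organ, V gene CPM was 60.9-fold higher in labelled liver TIL (49.0 to 76.7), 11.1-fold higher in liver PC (8.91 to 14.0) and 10.03-fold higher in labelled heart TIL (7.69 to 13.3). The kidney ratios were 1.59 (0.908 to 2.85) for TIL and 1.44 (0.799 to 2.65) for PC, and both intervals included 1. With the study's barcode filter (at least 500 UMIs and at most 10% mitochondrial) the kidney PC ratio was 0.847 (0.0807 to 5.18), on the other side of 1. With the heart and liver TIL labels exchanged, the ratios to blood were 94.6 for heart and 6.46 for liver.

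Iglv1 alone carried most of this difference. It had 11, 16 and 3 UMIs in heart, liver and kidney PBMC, 635 in labelled heart TIL, 5689 in labelled liver TIL, 25 in kidney TIL, 1474 in liver PC and 19 in kidney PC. All 5 tissue libraries lay above all 3 blood libraries on the CPM scale, and Iglv1 was the 1 V gene listed in every library. Its ratio to blood was 280 (172 to 490) in labelled liver TIL, 46.7 (25.9 to 94.0) in labelled heart TIL, 32.3 (19.9 to 56.7) in liver PC, 7.31 (2.23 to 37.8) in kidney TIL and 6.39 (1.88 to 33.7) in kidney PC. Without Iglv1, the ratio of all other V genes was 7.77 in labelled liver TIL (6.03 to 10.2), 5.96 in liver PC (4.65 to 7.76) and 1.63 in labelled heart TIL (1.14 to 2.36). The kidney ratios without Iglv1 were below 1, at 0.633 for TIL (0.285 to 1.37) and 0.617 for PC (0.263 to 1.38), with intervals on both sides of 1.

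The other loci differed from Iglv1 in size. Ighv CPM was 19.3-fold higher than blood in labelled liver TIL (10.01 to 42.9), 13.2-fold in liver PC (6.86 to 29.1) and 3.37-fold in labelled heart TIL (1.35 to 10.04). Igkv was 6.50-fold higher in labelled liver TIL (4.73 to 9.15) and 6.07-fold in liver PC (4.47 to 8.47), while the ratio in labelled heart TIL was 1.53 (0.940 to 2.53). With the TIL labels exchanged, labelled heart TIL against liver PBMC gave 2.01 (0.907 to 4.89) for Ighv, 0.858 (0.560 to 1.32) for Igkv, 28.7 for Iglv1 and 1.06 (0.770 to 1.48) for all V genes but Iglv1, so that of these 4 only the interval of Iglv1 (17.5 to 50.5) lay above 1. Labelled liver TIL against heart PBMC gave 32.4 for Ighv, 11.6 for Igkv, 455 for Iglv1 and 11.9 for all V genes but Iglv1. Iglv3 was 4.18-fold higher in labelled liver TIL (2.29 to 8.25), but its ratio in liver PC was 0.999 (0.519 to 2.05) with 37 UMIs against 13. The near copy Iglv2 had 0 or 1 UMI in each library except labelled liver TIL, with 6.

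Gene by gene, a V gene entered the comparison with blood when it had at least 10 UMIs over the 2 libraries, and most genes that entered did so through the tissue library alone. In labelled liver TIL against liver PBMC, 18 of 114 V genes entered, 17 with at least 10 UMIs in tissue and 9 at 0 in blood, and 16 were at least 2-fold higher (log2 of CPM plus 1), where 20.2% of all 13101 genes were. The median log2 ratio of these V genes was 1.41, or 1.58 with genes at 0 in blood set to their bound, against 0.26 over all genes. In liver PC, 30 of 104 entered, 29 with at least 10 UMIs in tissue and 20 at 0 in blood, and 12 were at least 2-fold higher, where 23.6% of all genes were. The median was 0.77, or 0.76 at the bound, against 0.45 over all genes. With a pseudocount of 5 CPM in place of 1, the V genes at least 2-fold higher numbered 1 in labelled liver TIL and 4 in liver PC, so these counts depend on the pseudocount. The share of all genes at that pseudocount is not given. Because the filter passes genes that are high in tissue, these counts describe the genes and support nothing further.

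In the labelled heart TIL comparison only Iglv1 and Iglv3 entered, and Iglv1 was at least 2-fold higher (37.6% of all genes were). In each kidney comparison only Iglv1 entered, and it was at least 2-fold higher in kidney TIL (19.8% of all genes were) and in kidney PC (20.8% of all genes were). Both kidney counts were 0 with a pseudocount of 5 CPM or with the study's barcode filter, for which no share of all genes is given. No V gene that entered was at least 2-fold lower in any of the 5 comparisons, where 8.97%, 11%, 14.3%, 7.97% and 17% of all genes were (labelled heart TIL, labelled liver TIL, kidney TIL, liver PC, kidney PC). With 1 CPM added, a gene below 1 CPM in blood could not be called lower. This held for Iglv1 in kidney PBMC (0.869 CPM) and for most genes that entered in the liver comparisons. The absence of lower genes was thus largely fixed in advance and supports nothing further. The largest log2 ratios in labelled liver TIL were those of Iglv1 (7.63), Igkv12-44 (2.18, 36 UMIs against 1) and Ighv1-18 (2.02, 26 UMIs against 0, at least 6.83-fold higher by a floor of 3 UMIs in blood). The smallest were those of Ighv1-15 (0.42), Igkv10-96 (0.74) and Ighv3-6 (1.12), all positive.

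Usage in tissue was dominated by 1 gene, and usage in blood was not. Iglv1 took 89.7% of V UMIs in labelled liver TIL (89.0 to 90.5), 86.7% in labelled heart TIL (84.1 to 89.1), 65.8% in kidney TIL (48.6 to 80.4), 63.3% in kidney PC (43.9 to 80.1) and 56.8% in liver PC (54.9 to 58.7). In blood the leading gene was Iglv3 in heart PBMC with 25.4% (15.0 to 38.4), Iglv1 in liver PBMC with 19.5% (11.6 to 29.7) and Ighv1-26 in kidney PBMC with 19.0% (5.45 to 41.9). The interval of every tissue library lay above those of all 3 blood libraries.

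Within the heavy chain locus, liver PC and labelled liver TIL drew on the same large family but weighted its genes differently. The Ighv1 family, the largest mouse Ighv family, took 78.3% of Ighv UMIs in labelled liver TIL, 78.4% in liver PC and 64.0% in labelled heart TIL. Ighv1-64 led in liver PC with 97 of 338 Ighv UMIs (28.7%, 23.9 to 33.8), of which 56 came from 1 plasma cell. Labelled liver TIL was led by Ighv1-18 with 26 of 221 (11.8%, 7.83 to 16.8) and Ighv1-82 with 23, where Ighv1-64 had 9 UMIs. The leading Ighv gene of labelled heart TIL was Ighv5-6, with 4 of 25 UMIs.

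Within the kappa locus, the Igkv3 family took 48.1% of Igkv UMIs in liver PC and 41.7% in labelled liver TIL. Liver PC was led by Igkv3-7 with 207 of 744 UMIs (27.8%, 24.6 to 31.2), of which 152 came from 1 plasma cell, and by Igkv3-12 with 131 (17.6%). In labelled liver TIL, Igkv3-12 and Igkv3-4 had 41 of 355 UMIs each (11.5%, 8.42 to 15.3), and Igkv12-44 had 36. Igkv3-4 led the kappa genes of heart PBMC with 6 of 27 UMIs, was level with Igkv4-51 at 7 of 43 in liver PBMC and was not listed in kidney PBMC, and had 2 UMIs in liver PC. Igkv4-51 had 2 UMIs in heart PBMC and was in no tissue table. Labelled heart TIL was led by Igkv4-55 with 9 of 51 UMIs and Igkv12-44 with 8.

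**Figure D2:**
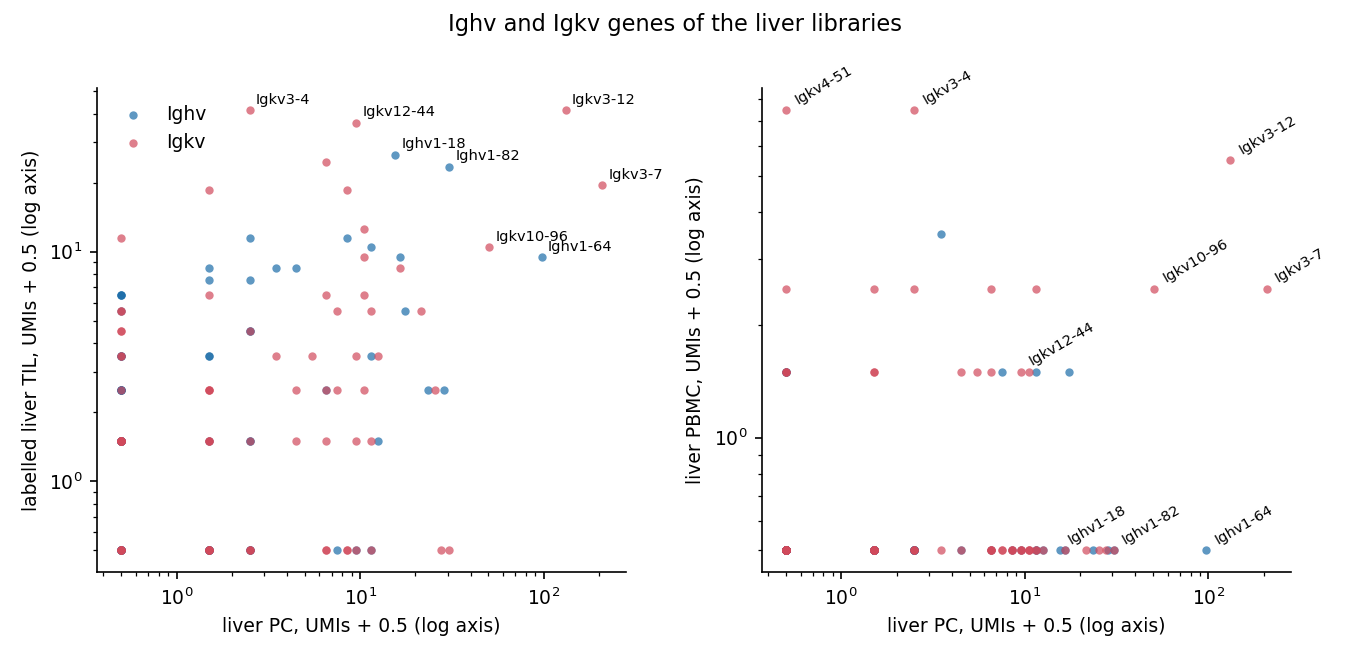
UMIs of each Ighv and Igkv gene, with 0.5 added so that genes at 0 can be drawn (log axes), in liver PC against labelled liver TIL on the left and against liver PBMC on the right. Igkv3-7 (207 UMIs), Igkv3-12 (131) and Ighv1-64 (97) lie farthest right, and Igkv3-4 lies high on both panels with 2 UMIs in liver PC.

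Diversity was expressed as the effective number of V genes, the number of equally used genes that would give the same probability of drawing 1 gene in 2 draws. It is an estimate corrected for the number of UMIs and can exceed the number of genes seen, which was 12 in kidney PBMC. Over all V genes it was 1.24 (1.22 to 1.26) in labelled liver TIL, 1.33 (1.25 to 1.40) in labelled heart TIL, 2.28 (1.31 to 3.25) in kidney TIL, 2.5 (1.2 to 3.8) in kidney PC and 2.99 (2.80 to 3.17) in liver PC. The blood libraries had 9.30 (4.93 to 13.7, heart), 12.8 (7.68 to 17.9, liver) and 16.2 (3.17 to 29.1, kidney). The order of tissue and blood was the same when all libraries were brought to 21 V UMIs, where 3.09 to 8.24 V genes were expected in tissue and 11.6 to 12.6 in blood.

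Without the lambda locus, the order changed. Over Ighv and Igkv together the effective number was 37.4 (32.0 to 42.8) in labelled liver TIL, 27.7 (14.8 to 40.5) in labelled heart TIL and 14.7 (12.9 to 16.6) in liver PC, against 22 (1.54 to 42.5) in heart PBMC and 21.4 (9.18 to 33.6) in liver PBMC. The intervals of tissue and blood overlapped, and those of labelled liver TIL and liver PC did not. Kidney libraries held 11 to 16 Ighv and Igkv UMIs, too few to place. Liver PC was less diverse than labelled liver TIL in both loci, with 8.85 (6.99 to 10.7) against 23.5 (18.1 to 28.9) for Ighv and 8.31 (7.18 to 9.43) against 18.5 (15.5 to 21.6) for Igkv.

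Plasma cells, defined as barcodes with at least 5 UMIs of Jchain (the joining chain of secreted IgA and IgM) and at least 3 of Mzb1, Derl3 and Xbp1 summed (genes of the secretory pathway), were counted next. There were 436 in labelled liver TIL (4.36% of barcodes, 3.97 to 4.78), 105 in liver PC (1.05%, 0.860 to 1.27) and 88 in labelled heart TIL (0.88%, 0.706 to 1.08). The other libraries held 3 (heart PBMC), 3 (liver PBMC), 1 (kidney PBMC), 1 (kidney TIL) and 0 (kidney PC, where counting error alone allows up to 0.03% of barcodes meeting the rule). The rule needs fixed UMI counts, and median UMIs per barcode were 261, 315 and 308 in kidney PBMC, TIL and PC. Plasma cells of low depth may thus be missed there, and 0.03% does not limit their true share. No doublet caller was run.

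Plasma cell markers outside the rule were high in these barcodes. Of 10 such markers, 8 in labelled liver TIL, 9 in liver PC and 7 in labelled heart TIL were at least 2-fold above T cell barcodes of the same library, and none was at 0. No share of all genes is given for this comparison, so these counts are descriptive. Some rest on few UMIs, such as Irf4 in labelled heart TIL (2 UMIs, 5.18-fold, 0.583 to 21.6). Sdc1 (CD138, the classic plasma cell surface antigen) was 10.4-fold, 35.4-fold and 20.97-fold higher, whereas Cd27 was lower. The plasma barcodes also carried RNA of other cells, with 8 T cell markers summing to 2110 (labelled liver TIL), 1734 (liver PC) and 2828 (labelled heart TIL) CPM against 7131, 7048 and 8047 in T cell barcodes. Median UMIs of the plasma barcodes were 896.5, 2047 and 1069. Of them, 74, 6 and 12 had a barcode sequence also present in another library, and none was a plasma cell in both.

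Plasma cells held 55.1% of V UMIs in labelled liver TIL, 67.5% in liver PC and 58.2% in labelled heart TIL. Their Iglv1 share was close to that of the whole library, of which they are a large part. Other genes could differ. Igkv3-4, with 41 UMIs in labelled liver TIL, had 9 of them in T cell barcodes and 25 in barcodes of no named class. Iglv1 took 3174 of 3495 V UMIs (90.8%, 89.8 to 91.8) in labelled liver TIL, 971 of 1750 (55.5%, 53.1 to 57.8) in liver PC and 380 of 426 (89.2%, 85.9 to 92.0) in labelled heart TIL. The next genes in liver PC plasma cells were Igkv3-7 (164 UMIs), Igkv3-12 (83) and Ighv1-64 (72).

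Iglv1 was found in plasma cells whose light chain constant RNA was kappa. Of the 629 plasma cells in the 3 libraries, 622 had more Igkc (the kappa constant gene) than any lambda constant gene, 5 were led by Iglc1 or Iglc3 and 2 by Iglc2. The 622 kappa-led cells held 4501 of the 4525 Iglv1 UMIs (99.5%), or 4.63 per 100 Igkc UMIs, while holding 1818 UMIs of the lambda constants that Iglv1 joins. Among them, 214 had no Iglc1 or Iglc3 UMI, and 181 of these had Iglv1, up to 64 UMIs and 1316 in all.

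The lambda-led cells held 0 to 12 Iglv1 UMIs each, and the median of kappa-led cells was 3 UMIs in labelled heart TIL and 4 in each of labelled liver TIL and liver PC. The 5 cells led by Iglc1 or Iglc3 carried 1060 UMIs of their constants and 12 Iglv1 UMIs, between 1 and 4 each, or 1.13 per 100 (0.583 to 1.99). Of these, 1 in labelled liver TIL also held 276 Igkc UMIs beside 333 of Iglc1. The 2 cells led by Iglc2 carried 429 constant UMIs, 0 and 12 Iglv1 UMIs, and no UMI of Iglv2 or Iglv3, the V genes that mainly join Iglc2. Because Iglv1 and Iglv2 are near copies, Iglv1 counts in these 2 cells are uncertain, also in the cell with 12, which held 226 of Iglc2. Kappa-led cells held 61 Iglv3 UMIs.

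Iglv1 was higher in cells with more Igkc. When the kappa-led cells of a library were ordered by Igkc and split into 3 groups of near equal size, mean Iglv1 UMIs per cell from low to high Igkc were 3.15, 6 and 12.8 in labelled liver TIL, 1.54, 7.59 and 18.7 in liver PC and 2.38, 4.89 and 5.90 in labelled heart TIL. Spearman's rho between Iglv1 and Igkc was 0.51 over 436 cells of labelled liver TIL, 0.68 over 105 of liver PC and 0.38 over 88 of labelled heart TIL. The rho with Iglc1 was 0.00, 0.06 and -0.19, with Jchain 0.55, 0.61 and 0.38, and with total UMIs 0.24, 0.10 and 0.00. Cells of 1 library share its depth and free RNA, and these values are descriptive.

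**Figure D3:**
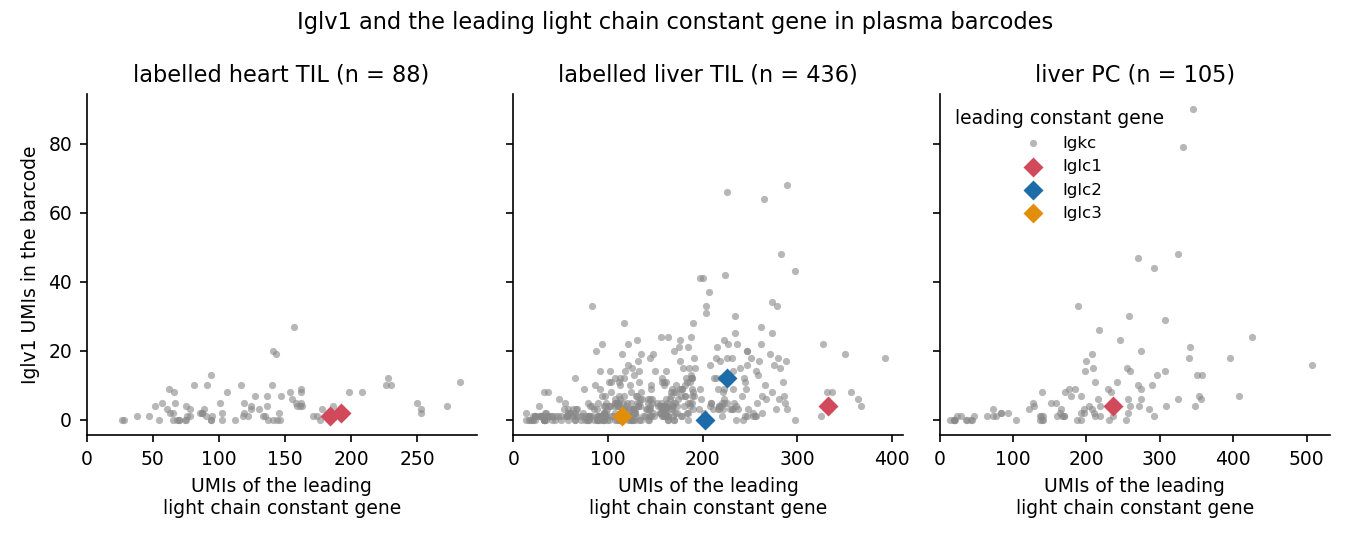
Iglv1 UMIs against UMIs of the leading light chain constant gene in each plasma cell of the 3 tissue libraries, coloured by that gene. Iglv1 reaches 68, 90 and 27 UMIs in cells led by Igkc (labelled liver TIL, liver PC, labelled heart TIL), and the 5 cells led by Iglc1 or Iglc3 hold 1 to 4.

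The genes most like Iglv1 over all 10000 barcodes of a library, by Pearson's r of log values, were mostly plasma cell and immunoglobulin genes. The first 3 were Igkc (0.41), Igha (0.36) and Jchain (0.35) in labelled liver TIL, Mzb1 (0.38), Eaf2 (0.35) and Fkbp11 (0.35) in liver PC, and Mzb1 (0.30), Jchain (0.27) and Eaf2 (0.26) in labelled heart TIL. Igkc was at rank 5 in labelled heart TIL (0.21), followed by Iglc2 (0.20) and Iglc3 (0.17), and at rank 6 in liver PC (0.29), followed by Iglc2 (0.24).

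Iglv1 RNA was also found outside plasma cells. T cells do not rearrange immunoglobulin genes, so V UMIs in their barcodes give a background level. T cell barcodes (at least 2 UMIs of Cd3d, Cd3e and Cd3g and none of 4 B cell markers) had an Iglv1 UMI in 19.8% of 3217 in labelled liver TIL, 4.72% of 6168 in liver PC and 2.40% of 4924 in labelled heart TIL, against 86.7%, 83.8% and 79.5% of plasma cells. Thinned to 500 UMIs per barcode, the shares were 12.7%, 1.61% and 1.36% in T cell barcodes and 76.5%, 59.9% and 66.3% in plasma cells, which left out 101, 0 and 90 T cell and 19, 0 and 3 plasma barcodes below that depth. Iglv1 per 100 Igkc UMIs in T cell barcodes was 1.63, 1.53 and 1.06, below the 4.83, 4.58 and 3.54 of plasma cells in each library. Igkv per 100 Igkc was lower in T cell barcodes too, at 0.1003, 0.698 and 0.118 against 0.264, 2.46 and 0.242. Ighv per 100 heavy constant UMIs was 0.1496, 0.494 and 0.144 against 0.219, 1.41 and 0.153. Intervals overlapped in both TIL libraries for Ighv and in labelled heart TIL for Igkv. Iglv3 per 100 Iglc2 was not lower in labelled liver TIL (3.34 against 2.89). A lower value was thus not particular to Iglv1. The Ighv and Igkv genes of T cell barcodes overlapped with those of plasma cells of the same library by a Morisita-Horn index of 0.930 (0.864 to 0.996) in liver PC, 0.607 (0.449 to 0.766) in labelled liver TIL and 0.470 (0.161 to 0.779) in labelled heart TIL, resting on 226, 91 and 24 UMIs of T cell barcodes. Spearman's rho of usage over genes was 0.50, 0.35 and -0.09 in the same order, a description over genes of 1 library. The part of free RNA in the plasma cell values was not tested.

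Heavy and kappa V UMIs were few beside their constant genes, and Iglv1 UMIs were not. In plasma cells of labelled heart TIL, labelled liver TIL and liver PC there were 0.153, 0.219 and 1.41 Ighv UMIs per 100 heavy constant UMIs. Igkv UMIs per 100 Igkc were 0.242, 0.264 and 2.46 in the same order, and Iglv3 UMIs per 100 Iglc2 were 1.93, 2.89 and 4.12. For Iglv1 per 100 Iglc1 and Iglc3 UMIs the values were 62.1, 276 and 86.9, so that in labelled liver TIL the V gene exceeded its constants. In the 5 plasma cells led by Iglc1 or Iglc3, Iglv1 was 1.13 per 100 of these constants (0.583 to 1.99). These ratios are not scaled by transcript length. V coding lengths lay within 347 to 370 bases for all genes with at least 10 UMIs. The distance from V exon to 3′ end was not measured, and its part in the ratios was not tested.

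**Figure D4:**
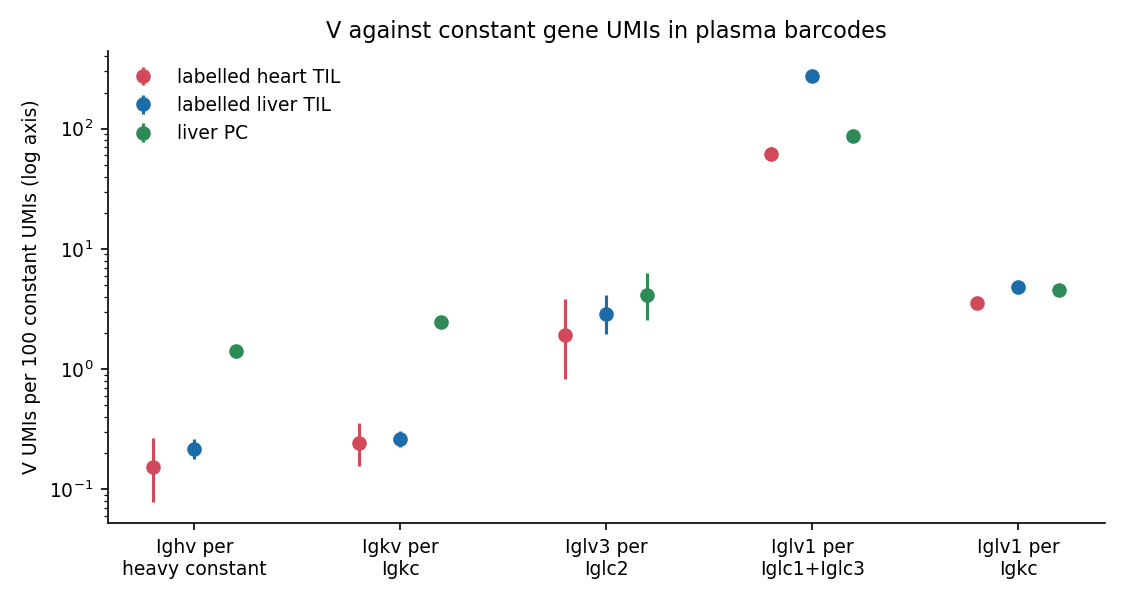
V UMIs per 100 constant UMIs in plasma cells of the 3 tissue libraries (log axis, bars at 95% exact Poisson intervals), for Ighv, Igkv and Iglv3 by their usual constants and Iglv1 by Iglc1 and Iglc3 and by Igkc. Igkv and Ighv are higher in liver PC than in both TIL libraries, and Iglv1 per Igkc lies between 3.54 and 4.83 in all 3.

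Liver PC held more heavy and kappa V UMIs beside their constants than either TIL library. Igkv per Igkc was 9.33-fold higher in liver PC than in labelled liver TIL, and Ighv per heavy constant 6.44-fold. Without the single cell holding 152 Igkv3-7 UMIs, Igkv per 100 Igkc in liver PC was 1.78. In contrast, Iglv1 per Igkc was 0.948 times that of labelled liver TIL. Thinned to 500 UMIs per barcode, the share of plasma cells with an Igkv UMI was 43.5% in liver PC, 13.7% in labelled liver TIL and 10.7% in labelled heart TIL (74.3%, 21.8% and 19.3% before thinning). The share with an Ighv UMI was 22.9%, 11.2% and 6.22% (45.7%, 18.1% and 13.6% before thinning). The same rank was seen with and without thinning. Preparation of the cells (PC or TIL) and depth differed together between these libraries, and by its organ markers labelled liver TIL may differ from liver PC in organ and recipients too, so these cannot be told apart.

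Heavy chain class differed between the libraries, and Iglv1 was present in each class. Among kappa-led plasma cells, 378 of 432 in labelled liver TIL (87.5%) had Igha (IgA) as the leading heavy constant gene. Liver PC had 35 Igha, 30 Ighm (IgM) and 14 Ighg2c (an IgG2 subclass) cells among 104, and labelled heart TIL 39 Igha and 23 Ighm cells among 86. Iglv1 per 100 Igkc in Igha, Ighg2b and Ighm cells was 4.93, 4.87 and 2.53 in labelled liver TIL, 4.60, 8.96 and 3.28 in liver PC and 3.84, 2.26 and 2.98 in labelled heart TIL. It was higher in Igha than in Ighm cells in each library, with intervals that overlapped in labelled heart TIL, whereas the place of Ighg2b differed between them. Ighg3 was highest in labelled heart TIL (6.57, 4.67 to 9.02, 5 cells), and Ighg2c in liver PC was 4.97 (14 cells). Labelled liver TIL had 8 Ighm and 17 Ighg2b cells, and liver PC and labelled heart TIL 8 Ighg2b cells each. These intervals pool UMIs over few cells, with 0 to 90 Iglv1 UMIs per kappa-led cell, so these orders are descriptive. In liver PC, Igkv per 100 Igkc was 4.10 (3.56 to 4.70) in Ighm cells and 2.31 (1.99 to 2.67) in Igha cells. That order rested on the single cell with 152 Igkv3-7 UMIs, which was an Ighm cell: the value for the other 29 Ighm cells was 1.34 (1.03 to 1.72), below that of Igha cells.

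Most plasma cells with several V UMIs of a locus held 1 V gene of it. In liver PC, 22 plasma cells had at least 3 Ighv UMIs, and in 20 of them (90.9%, 70.8 to 98.9) all came from 1 gene. The leading gene of a cell took 199 of the 201 Ighv UMIs (99.0%). For Igkv, 28 of 45 cells held 1 gene (62.2%, 46.5 to 76.2), and the leading gene took 439 of 471 UMIs (93.2%). In labelled liver TIL, 6 of 8 cells held 1 Ighv gene and 12 of 16 held 1 Igkv gene. A pair of Ighv UMIs in liver PC came from the same gene in 99.7% of pairs within a cell and 5.29% of pairs from different cells, or 98.8% and 2.95% without the cell holding 56 Ighv1-64 UMIs. For Igkv the shares were 98.4% and 4.37%, or 88.6% and 5.32% without the cell holding 152 Igkv3-7 UMIs. In labelled liver TIL they were 90.9% and 3.52% for Ighv and 77.1% and 4.73% for Igkv. Iglv1, by contrast, was in 87 of 104 kappa-led cells of liver PC and 375 of 432 of labelled liver TIL.

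**Figure D5:**
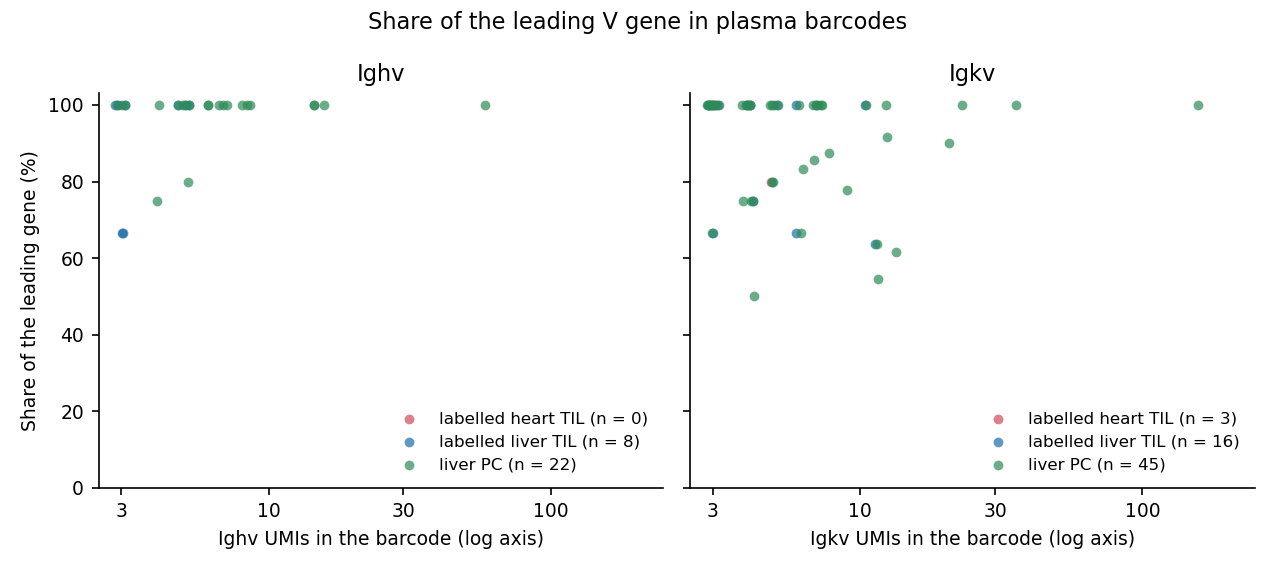
Share of a plasma cell's V UMIs of a locus that came from its leading gene, against the number of those UMIs (log axis), for cells with at least 3 UMIs, shifted slightly sideways so that points can be told apart. Points at 100% are cells with 1 gene, which are 20 of 22 for Ighv and 28 of 45 for Igkv in liver PC.

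The low diversity of liver PC in UMIs rested on few cells. Counted by cells, each by its leading gene, the effective number in liver PC was 25.6 for Ighv (48 cells, 24 genes, at most 5 cells per gene) and 28.1 for Igkv (78 cells, 34 genes, at most 8). Counted by UMIs of the same plasma cells, it was 8.00 and 7.34. In labelled liver TIL the values were 30.8 by cells and 23.2 by UMIs for Ighv, and 28.6 and 17.3 for Igkv. The distance between liver PC and labelled liver TIL was smaller for Ighv when each cell counted once, and the Igkv values were then nearly equal (28.1 and 28.6).

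A leading Ighv and a leading Igkv gene were both seen in 67 plasma cells, 42 in liver PC, 23 in labelled liver TIL and 2 in labelled heart TIL. They formed 58 different pairs, of which 7 were found in more than 1 cell and 2 of these in more than 1 library. Ighv1-82 with Igkv4-91 was found in 4 cells, all with Igha as the leading constant gene. In the 3 liver PC cells, Ighv1-82 had 2, 7 and 5 UMIs and Igkv4-91 had 7, 4 and 3, and in the cell of labelled liver TIL each had 1 UMI. The 4 cell barcodes differed from each other at 11 or more positions.

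The other repeated pairs were in 2 cells each, and are named although their values were seen first. Ighv1-64 with Igkv4-57 was in 2 liver PC cells, both Ighg2b, with 56 and 15 Ighv1-64 UMIs and 18 and 2 Igkv4-57 UMIs. Ighv1-9 with Igkv10-96 (both Igha), Ighv5-6 with Igkv8-27 (both Ighg1) and Ighv5-4 with Igkv6-23 (1 Igha, 1 Ighg2c) were in liver PC. Ighv1-15 with Igkv12-44 was in labelled liver TIL, and Ighv1-85 with Igkv12-44 was in 1 cell of each of liver PC and labelled liver TIL, all Igha. Both rested on few UMIs. Ighv1-15 had 5 and 1 with 1 of Igkv12-44 in each cell. Ighv1-85 had 1 in each cell, with 3 of Igkv12-44 in liver PC and 1 in labelled liver TIL. The part of free RNA in such pairs was not tested. Of the 7 repeated pairs, 6 had the same heavy class in all their cells. Igha led in 33.7% of kappa-led plasma cells of liver PC and 87.5% of those of labelled liver TIL. It led in a larger share of the liver PC cells in which a pair was seen. The shares of kappa-led cells are thus no background for repeated pairs, and the agreement in class is descriptive. No junction sequence was used here, so a shared pair does not establish a shared clone.

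Overlap of usage between tissue and blood was measured by the Morisita-Horn index, which is 1 for equal shares and 0 for no common gene. Over all V genes it was 0.386 (0.197 to 0.575) for labelled heart TIL with heart PBMC, 0.398 for labelled liver TIL and 0.562 for liver PC with liver PBMC, and 0.372 and 0.350 for kidney TIL and PC with kidney PBMC. Without Iglv1 alone, the heart and liver values were 0.667 (labelled heart TIL), 0.659 (labelled liver TIL) and 0.334 (liver PC). These values keep Iglv3, which had 20 UMIs in labelled heart TIL and 15 in heart PBMC. Over Ighv and Igkv only, they were 0.123 (0.0105 to 0.235, labelled heart TIL), 0.497 (labelled liver TIL) and 0.346 (liver PC). With the TIL labels exchanged, the values over all V genes were 0.369 for heart and 0.413 for liver. Pairs of tissue with blood of another organ gave 0.284 to 0.522 (median 0.439, 10 pairs), a range that overlapped the 5 pairs of the same organ (median 0.386). Tissue libraries resembled each other, with 0.896 to 0.999 over 10 pairs, and blood libraries gave 0.472 to 0.869 over 3 pairs.

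Without the lambda locus, tissue libraries were less alike. Over Ighv and Igkv alone, tissue pairs gave 0.0281 to 0.487, tissue and blood of the same organ 0.0416 to 0.497 and tissue and blood of another organ 0.0417 to 0.397. With the TIL labels exchanged, heart was 0.397 and liver 0.169 for TIL with blood, and the 0.497 belonged to a pair of different organs. The largest uncorrected values were 0.497 for labelled liver TIL with liver PBMC, 0.487 for labelled heart TIL with labelled liver TIL and 0.464 for labelled liver TIL with liver PC, apart from 0.627 for heart PBMC with liver PBMC. The order depended on the index. With the Morisita index, which corrects for the number of UMIs, heart PBMC with liver PBMC was 0.948, heart PBMC with kidney PC 0.771 (0.359 uncorrected), liver PBMC with kidney PC 0.725 (0.357 uncorrected) and labelled liver TIL with liver PBMC 0.632, while labelled heart TIL with kidney TIL was 0.0439.

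The larger tissue libraries held most of the V genes seen in blood, of the same organ or not. A V gene is listed only where it has a UMI, and labelled liver TIL held 6340 V UMIs against 82 in liver PBMC. The share of all genes that libraries have in common is not given, so the counts below are descriptive. Labelled liver TIL shared 21 V genes with liver PBMC, 20% of its 105 and 70% of the 30 in blood, and liver PC shared 22 (22.9% of its own and 73.3% of those in blood). Labelled heart TIL shared 11 with heart PBMC (28.9% and 45.8%), kidney TIL 3 with kidney PBMC (33.3% and 25%) and kidney PC 2. Of the 24 V genes of heart PBMC, 18 (75%) were in labelled liver TIL and 18 in liver PC. Of the 30 of liver PBMC, 9 (30%) were in labelled heart TIL, which is the value for liver with the TIL labels exchanged. Plasma cells of labelled liver TIL and liver PC shared 39 Ighv and Igkv genes (51.3% and 57.4%), with an overlap of 0.50.

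B cell barcodes of blood held less Iglv1 beside Igkc than tissue plasma cells. Barcodes with B cell markers numbered 359 in heart PBMC and 766 in liver PBMC, of which 18 and 20 had a V UMI. Iglv1 per 100 Igkc in these B cell barcodes was 0.307 (0.0996 to 0.718) in heart and 0.102 (0.0278 to 0.262) in liver PBMC, below the 3.54 to 4.83 of tissue plasma cells. Igkv per 100 Igkc was 0.369 (0.135 to 0.804) and 0.256 (0.122 to 0.470) there, against 0.242 and 0.264 in plasma cells of labelled heart TIL and labelled liver TIL and 2.46 in those of liver PC.

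Rag1 and Rag2, which cut V segments for recombination in developing B cells, were at or near 0. Both had 0 UMIs in all libraries, except 2 of Rag1 in liver PBMC. They belong to a list of 12 recombination and hypermutation genes, whose other members were not all near 0. Dntt of that list had 10 UMIs in liver PC, 4 in labelled heart TIL and 2 in kidney PBMC.

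The constant genes that V genes join also differed between tissue and blood. Of the constant genes with at least 10 UMIs, 6 of 11 were at least 2-fold higher and 2 lower in labelled heart TIL (37.6% and 8.97% of all genes were). In labelled liver TIL 7 of 11 were higher and 2 lower (20.2% and 11% of all genes), and in liver PC 5 of 11 and 4 (23.6% and 7.97%). Kidney TIL had 2 of 8 higher and 4 lower (19.8% and 14.3%) and kidney PC 2 of 8 and 3 (20.8% and 17%), so the higher counts in kidney were near the share of all genes. Igha was higher in all 5, from 214 CPM against 105 in kidney TIL to 13590.3 against 65.8 in labelled liver TIL. Igkc was 24767 CPM in labelled liver TIL against 2552 in liver PBMC, but 330.6 in kidney TIL and 408.9 in kidney PC against 442.5 in kidney PBMC. Ighd (IgD, carried by naive B cells) and Iglc3, a constant partner of Iglv1, were at least 2-fold lower in all 5. Iglc1, the other partner, was at least 2-fold lower in liver PC and kidney TIL, and higher in labelled liver TIL alone. Vpreb3, a B cell gene of the surrogate light chain list, had 189, 237 and 14 UMIs in heart, liver and kidney blood and 28, 78, 2, 75 and 0 in labelled heart TIL, labelled liver TIL, kidney TIL, liver PC and kidney PC, and was at least 2-fold lower in all 5.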

How the data were processed

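Cells from allografts and blood were captured by Microwell-seq. The authors processed reads with Drop-seq core tools and STAR against GRCm38 and GENCODE genes (release not given in the sources used here), discarded reads with a barcode base of quality below 10, removed multi-aligned reads and merged UMIs within an edit distance of 1. The deposited tables give raw UMI counts, 1 value for each gene in each barcode, not normalized. Each has 10000 barcodes and 3418722 to 19171264 UMIs. Counts were summed per library, or per barcode class, and scaled to the library total (CPM). Fold counts used log2(CPM + 1) for genes with at least 10 UMIs over both libraries. B and T cell barcodes held at least 2 UMIs of their markers, none of the other type's, and were not plasma cells. The members and lists were chosen with earlier results of these data known. V genes were named by a set rule: the 5 with most UMIs in each library and in its plasma cells, pairs in at least 3 plasma cells of a library, and the 3 largest and smallest log2 ratios of TIL over PBMC. Sequences, coding lengths and biotypes came from GENCODE M21 (GRCm38). Python 3.11.15, numpy 2.4.6, scipy 1.17.1 and pandas 2.3.3 were used, and the calculations were tested on simulated data. Alternatives covered the barcode filters, plasma cell rule, pseudocount, count filter, scaling, shared barcodes and labels. Heart PC and bulk samples were not analysed here. Some listed genes are not reported here.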

Additional observations from a re-analysis of the deposited data

How the results depend on the processing

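No paired test was run. Tissue and blood were matched by organ, but each group, an organ and a compartment, had 1 library, so no organ had replicates. The labels give no replicate numbers that groups share. Of 241 recomputed values, 185 stayed within the interval of the main value, or within 1.5 times it for counts, 53 moved and 3 reversed. Reversal was assessed only for the ratios to blood. Some values could not change under their alternative, such as those of kidney and liver PC with the TIL labels exchanged. The tally thus does not measure how robust the results are. The alternatives without Iglv1, with the Morisita index and with thinned barcodes were chosen after seeing the data.

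With the study's barcode filter (at least 500 UMIs, at most 10% mitochondrial), the kidney PC ratio to blood reversed to 0.847, the effective number was 18.1 in liver PBMC and 1 in kidney PC, Iglv1 took 100% in kidney PC, and the counts of V genes at least 2-fold higher were 0 in kidney TIL and kidney PC. Without barcodes found in more than 1 library, kidney TIL had 0 plasma cells. Without the barcode with the most V UMIs, liver PC had an effective number of 2.71 and an Iglv1 share of 60.1%. With each barcode weighted equally, the effective number was 1.48 in labelled heart TIL and 1.30 in labelled liver TIL.

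A stricter plasma cell rule (Jchain at least 10, the other genes at least 5) left 1, 1 and 0 cells in heart, liver and kidney PBMC, 56 in labelled heart TIL, 268 in labelled liver TIL and 0 in kidney TIL. A looser rule (3 and 2) gave 2 in kidney PBMC, 759 in labelled liver TIL and 5 in kidney TIL. After thinning to 500 UMIs there were 1 in heart PBMC, 55 in labelled heart TIL, 255 in labelled liver TIL, 0 in kidney TIL and 50 in liver PC.

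With a pseudocount of 5 CPM, V genes at least 2-fold higher numbered 1 in labelled liver TIL, 0 in kidney TIL, 4 in liver PC and 0 in kidney PC. With no filter on low counts, 2 were higher in kidney TIL, and 1 was lower in each of labelled liver TIL, kidney TIL, liver PC and kidney PC. With the heart and liver TIL labels exchanged, the ratios to blood were 94.6 (heart) and 6.46 (liver), and 15 and 1 V genes were higher. The share of all genes past 2-fold is not given for any alternative, so these counts are descriptive.

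Without Iglv1, the ratios to blood were 1.63 (labelled heart TIL), 7.77 (labelled liver TIL), 5.96 (liver PC) and, reversed, 0.633 (kidney TIL) and 0.617 (kidney PC). The effective numbers were 15.9, 31.2, 9.75, 15.5 and 18.3 and the leading shares 20.6%, 10.6%, 30.8%, 18.5% and 18.2% in labelled heart TIL, labelled liver TIL, kidney TIL, liver PC and kidney PC. The overlap with blood, with Iglv3 kept, was 0.667 in labelled heart TIL, 0.659 in labelled liver TIL and 0.334 in liver PC. The causes were not tested, beyond what each alternative removes by construction.

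Blood and kidney libraries held 21 to 82 V UMIs, which limits every statement on their usage. Differences between libraries have no replicate check, and near-identical V genes cannot be separated with certainty.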
